A study of Mus musculus with 5 samples.

Results

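Cell cycle genes were followed in keratinocytes from the back skin of mice aged 28 days. The set held 40 genes chosen by symbol and matched through their Ensembl gene IDs, 14 that act in DNA replication, 20 that act in mitosis, 4 cyclins of the G1 phase and 2 inhibitors of cyclin-dependent kinases (CDK). All 40 were found among the 56691 genes of the deposited table, and all 40 passed the filter on low counts. One group of libraries came from cells sorted for GFP, described by the labels as Lrig1 positive keratinocytes and epidermal stem cells (GFP 1, 2 and 3). The other came from the whole unsorted population, labelled as wild-type basal keratinocytes (bulk 1 and 2). The question the design poses is how cells carrying Lrig1, a membrane protein that marks the upper hair follicle and restrains receptors of the EGF family, differ from the basal population as a whole. No source used here gives the construct that carries GFP, its promoter or the sorting gates. The genotype label is WT for bulk and Lrig1 positive for sorted libraries, although title numbers 4143 and 4145 stand on 1 library of each kind, and 4146 on GFP 3 alone. The labels do not say whether the libraries of a group came from separate animals, so p-values measure only the spread between these libraries.

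Before a cell copies its DNA, the licensing factors Cdc6 and Cdt1 load the ring of Mcm proteins onto replication origins, and Pcna later clamps the polymerases to the template while Rrm1, Rrm2 and Tyms supply nucleotides. Cyclins of the D and E types drive entry into this S phase, and Cdk1 with cyclins A and B drives mitosis, in which Aurora and Polo kinases, kinesins and checkpoint proteins line up and part the chromosomes. Genes of replication are classically controlled by E2F factors, and genes of mitosis through a paired CCAAT box and cell cycle homology region (CHR) bound by NF-Y and the DREAM and MuvB complexes. In skin, dividing cells lie in the basal layer, in the outer root sheath and, in a growing follicle, in the hair matrix.

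The promoters were searched for the motifs of both control systems, and 4 are shown that differ in which of them they hold. RefSeq windows of 250 bases before to 50 after the start, on build GRCm38.p6, which is not the build of the counts, were found for 32 of the 40 genes. Pcna and Cdk1 are the replication and the mitosis gene with the smallest p among those with a window, and Mcm6 and Mki67 were chosen after their values were seen. Each is printed 5′ to 3′ along the gene. Capitals mark matches on either strand to the CHR (TTTGAA or TTCGAA), the CCAAT box (CCAAT, read ATTGG on the other strand) or the E2F motif (TTTCCCGC, TTTGGCGC, TTTCGCGC or TTTGCCGC). The windows lie at chr2:132253131-132253430, chr1:128359656-128359955, chr10:69352863-69353162 and chr7:135716330-135716629, all on the minus strand.
Pcna: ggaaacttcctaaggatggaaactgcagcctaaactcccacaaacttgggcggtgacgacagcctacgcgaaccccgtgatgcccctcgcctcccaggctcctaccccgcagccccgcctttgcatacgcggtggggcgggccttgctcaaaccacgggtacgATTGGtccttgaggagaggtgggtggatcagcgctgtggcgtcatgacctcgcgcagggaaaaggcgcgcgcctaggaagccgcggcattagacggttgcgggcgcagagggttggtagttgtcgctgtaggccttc
Mcm6: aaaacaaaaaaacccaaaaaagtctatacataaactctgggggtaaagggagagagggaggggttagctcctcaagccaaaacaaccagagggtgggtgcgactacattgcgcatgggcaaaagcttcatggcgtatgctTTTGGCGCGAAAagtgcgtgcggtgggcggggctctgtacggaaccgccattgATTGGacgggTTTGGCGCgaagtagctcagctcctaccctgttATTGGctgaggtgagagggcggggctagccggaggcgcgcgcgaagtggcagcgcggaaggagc
Cdk1: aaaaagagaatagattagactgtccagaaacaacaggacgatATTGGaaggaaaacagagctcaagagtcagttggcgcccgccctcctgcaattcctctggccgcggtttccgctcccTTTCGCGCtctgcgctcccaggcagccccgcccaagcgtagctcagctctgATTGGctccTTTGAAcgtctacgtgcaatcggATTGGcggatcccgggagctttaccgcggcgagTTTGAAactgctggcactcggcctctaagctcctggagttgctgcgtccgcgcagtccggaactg
Mki67: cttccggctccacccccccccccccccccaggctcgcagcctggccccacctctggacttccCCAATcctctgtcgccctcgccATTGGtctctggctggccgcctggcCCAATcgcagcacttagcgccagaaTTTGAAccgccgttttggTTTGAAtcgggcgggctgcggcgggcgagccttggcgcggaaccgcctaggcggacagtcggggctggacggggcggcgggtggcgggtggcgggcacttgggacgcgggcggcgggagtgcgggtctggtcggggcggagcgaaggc

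The Mcm6 window held 3 E2F matches, of which 1 pair overlaps on opposite strands, 2 CCAAT boxes and no CHR. The Cdk1 and Mki67 windows held 2 CHR matches each with 3 CCAAT boxes, and Cdk1 an E2F match as well. The Pcna window held a single CCAAT box and none of the E2F letters searched. Across all the mitosis genes with a window, 13 of 17 windows (76.5%) held a CHR, each together with a CCAAT box, against 19.2% of 32851 windows of all genes with a CHR and 7.52% with both. Of the 14 windows of 12 replication genes, 2 held a CHR and 7 (50%) an E2F match, against 2.26% of all windows and 1 of 17 windows of the mitosis genes. No motif was matched in the windows of Birc5, Nusap1, Tyms, Ccne1 and Cdkn1a, which says only that these letters are absent there. A match is a description of letters and not a measured site.

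Libraries held 56829330 to 105887450 counts, and the scarcest value of any cell cycle gene was 100 counts. Over all genes, replicates of a group differed well beyond sampling noise. Single genes can lie closer than counting error, as Mcm4 did in bulk and Rrm1 in sorted libraries. Levels are given as CPM, the count scaled to a common library size after TMM normalization. Genes of the basal layer, among them Krt5 and Krt14, were present in both groups, their 12-gene list summing to 23450 and 26595 CPM in bulk and to 36130 to 44529 CPM in GFP libraries. The bulk libraries held more RNA of genes listed for the hair matrix and inner root sheath, with hair shaft keratins among them. Their summed level was 2130 and 3818 CPM in the bulk libraries against 253, 351 and 256 CPM in GFP 1, 2 and 3. All 19 tested members were lower and 18 of them called. The hair shaft keratin gene Krt34 was at 5, 0 and 2 counts in the sorted libraries. This list does not single out the dividing cells of the matrix. Genes called lower were also 9 of 16 suprabasal, 3 of 12 sebaceous, 9 of 10 melanocyte, 12 of 12 myeloid, 11 of 11 T cell, 5 of 6 red cell, 2 of 9 fibroblast and 2 of 7 endothelial markers tested. Upper follicle markers summed to 6257 and 6710 CPM in bulk and 11168, 9646 and 7104 CPM in GFP 1, 2 and 3, with 10 of 11 higher, of which 1 was called, and 1 called lower. GFP 3 alone had abundant Xist (53714 counts, against 0 to 8) and little of the Y-linked Ddx3y (62 counts, against 1750 to 4462). In such bulk RNA, fewer cells of a type and less RNA per cell cannot be told apart, and the part of these other cells in the values below was not tested.

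None of the 40 cell cycle genes was called higher or lower in GFP-sorted cells by edgeR's quasi-likelihood test (adjusted p under 0.05, Benjamini-Hochberg over 18583 genes). Over all genes 0.145% were called higher and 5.14% lower. At an unadjusted p under 0.05 there were 7 of the 40 (17.5%), all higher in sorted cells. Of all genes tested 15.8% were under it, higher and lower together, a share not split by direction. The DESeq2 Wald test called 2 (Cdk1 and Cdc20), where it called 1.01% of all genes higher and 7.05% lower. Without a filter on low counts edgeR called Gins2 alone (0.786% of all genes higher, 5.06% lower), and with the trend on length and GC content removed Cdk1 alone (0.387% higher, 5.37% lower). Log2 fold changes (GFP over bulk) ran from -0.12 for Mki67 to 0.87 for Gins2, and 34 of 40 were above 0, against 54.4% of all genes tested. The median was 0.34, against 0.05 over all genes. Without GFP 3 it was 0.20, against 0.00169, and 28 of the 40 were above 0. With library size alone as the scaling the median of all genes moved by over 0.1, to -0.07. Relative to all genes the median of the 40 was 0.29 with TMM and 0.30 with library size. Replication genes above 0 numbered 11 of 14 with TMM and 8 of 14 with library size, and mitosis genes 18 of 20 with both. In 19 of the 40 all 3 GFP libraries lay above both bulk libraries, and in none did all 3 lie below, against 14.6% and 18.5% of all genes tested.

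**Figure D1:**
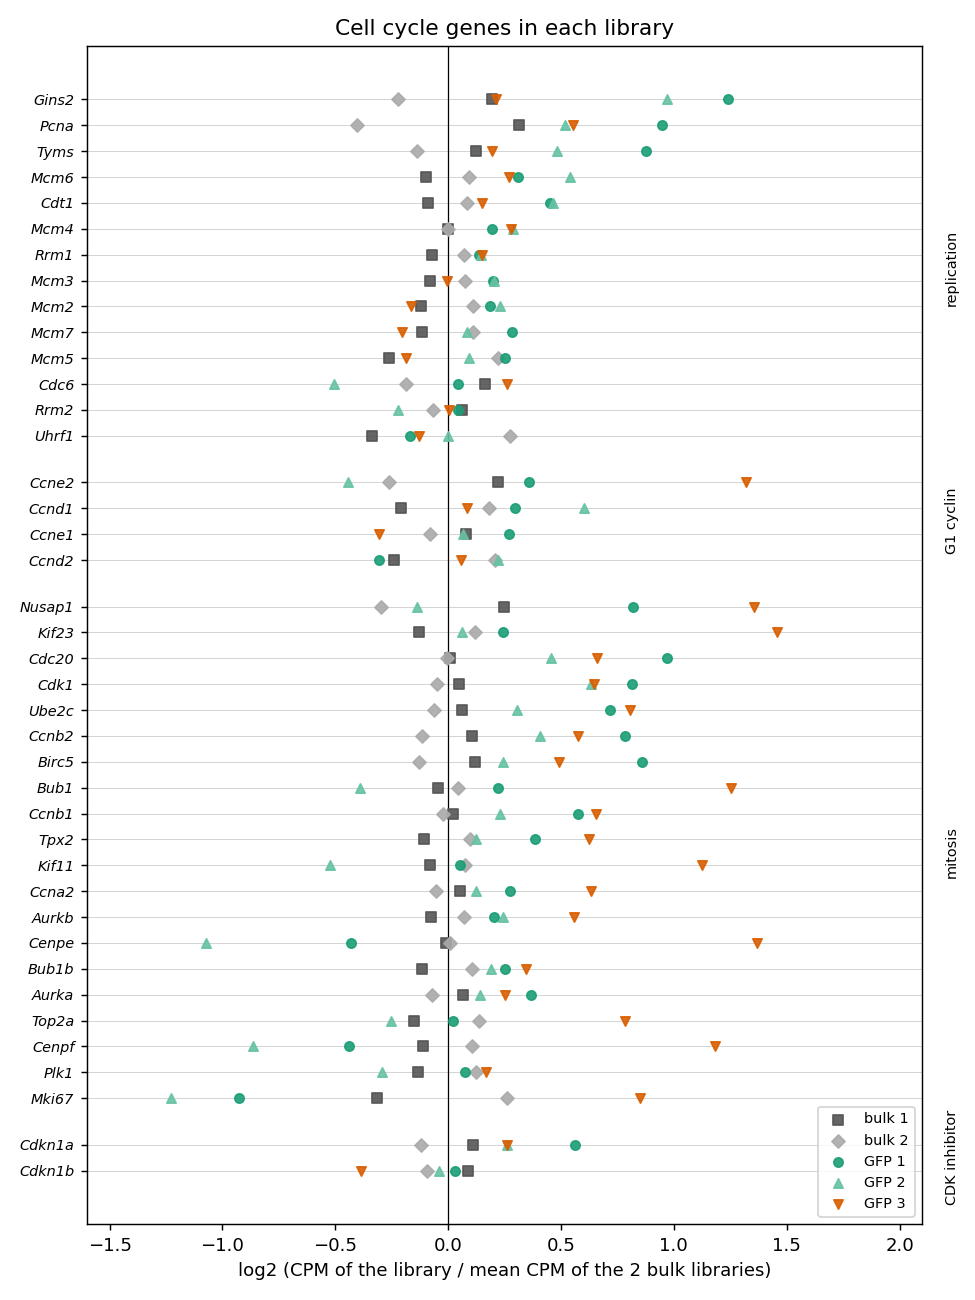
Level of each cell cycle gene in each library as log2 of its CPM over the mean CPM of the 2 bulk libraries (horizontal axis), 1 row per gene, grouped by role. Symbols stand for the 5 libraries. Most points of GFP libraries lie to the right of 0, while for Mki67, Cenpf and Cenpe GFP 1 and 2 lie to the left and GFP 3 far to the right.

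Among the replication genes, 7 of 14 (Pcna, Gins2, Tyms, Cdt1, Mcm4, Mcm6 and Rrm1) were above both bulk libraries in every sorted library, without passing the test. That is 50%, against 14.6% of all genes tested. Pcna (ENSMUSG00000027342.15), the sliding clamp, was at 89.6 and 54.4 CPM in bulk and 139, 103 and 105.7 CPM in GFP 1, 2 and 3, a log2 difference of 0.69 ± 0.26 (SE; edgeR adjusted p = 0.253). The groups did not overlap, although the bulk libraries differed from each other by more than the gap between groups, and the difference was 1.10 without bulk 1 and 0.36 without bulk 2. Gins2, a subunit of the replicative helicase, was at 8.78 and 6.59 CPM in bulk and 18.2, 15.1 and 8.89 CPM in sorted cells (log2 0.87 ± 0.33, edgeR adjusted p = 0.246). GFP 1 and 2 stood well above the rest, and GFP 3 was next to bulk 1. Tyms, which makes thymidylate, followed the same order, with 19.7 and 16.5 CPM in bulk and 33.2, 25.3 and 20.7 CPM in sorted cells (log2 0.54 ± 0.25, edgeR adjusted p = 0.344; 0.34 without GFP 1). The licensing factor gene Cdt1 was at 22.5 and 25.3 CPM in bulk and 32.6, 32.9 and 26.5 CPM in sorted cells (log2 0.36 ± 0.20, edgeR adjusted p = 0.442). Mcm6 had the largest difference of the Mcm genes, at 54.3 and 61.8 CPM in bulk and 71.9, 84.3 and 70.0 CPM in sorted cells (log2 0.38 ± 0.19, edgeR adjusted p = 0.386).

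The other Mcm genes, whose products make up the same helicase ring as Mcm6, differed less. Their log2 fold changes ran from 0.06 for Mcm5 to 0.25 for Mcm4, with standard errors of 0.17 to 0.22. Of these 5, only Mcm4 had groups that did not overlap, with 39.94 and 39.96 CPM in bulk and 45.7, 48.7 and 48.4 CPM in sorted cells. The subunits of ribonucleotide reductase differed by 0.14 (Rrm1) and -0.05 (Rrm2), Uhrf1, which carries DNA methylation through replication, by -0.10, and Cdc6, which loads the Mcm ring, by -0.03. In 8 of the 14 replication genes GFP 3 was the lowest of the sorted libraries.

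In none of the G1 cyclins were the groups apart. Ccnd1, cyclin D1, was at 56.8 and 74.3 CPM in bulk and 80.4, 99.6 and 69.5 CPM in sorted cells (log2 0.34 ± 0.23, edgeR adjusted p = 0.528), and the groups overlapped through GFP 3. The difference was 0.17 without bulk 1, 0.54 without bulk 2 and 0.19 without GFP 2. Ccnd2, cyclin D2, was at 183 and 250 CPM in bulk and at 175, 252 and 225 CPM in sorted cells, a difference of 0.01 ± 0.24 whose sign changed with library size scaling. In both groups the library numbered 4145 was higher than the one numbered 4143. The cyclin E1 gene Ccne1 was at 9.51 and 8.51 CPM in bulk and 10.9, 9.43 and 7.28 CPM in sorted cells, so the ranges overlapped (log2 0.03 ± 0.25, also of the other sign with library size scaling). Ccne2 was the scarcest gene of the 40 at 2.39 and 1.71 CPM in bulk and 2.63, 1.51 and 5.12 CPM in sorted cells, with GFP 3 alone above the others. Its log2 difference of 0.60 ± 0.51 was 0.0146 without GFP 3, 0.36 without bulk 2 and 0.92 without GFP 2.

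Of the CDK inhibitors, Cdkn1a, the p21 gene that p53 induces, was at 1104 and 941 CPM in bulk and 1510, 1224 and 1226 CPM in sorted cells. The groups did not overlap, but the log2 difference of 0.37 ± 0.25 did not pass (edgeR adjusted p = 0.535). Cdkn1b, the p27 gene, was at 105 and 93.0 CPM in bulk and 101, 96.4 and 75.8 CPM in sorted cells, with overlapping groups (log2 -0.12 ± 0.20, and -0.22 to -0.00989 with a library left out). Per kilobase of the longest annotated transcript, Cdkn1a had the highest bulk level of the 40 genes, 491 CPM per kb. Next came Pcna at 47.4, Ccnd2 at 34.2 and Cdc20 at 24.5 CPM per kb. At the other end were Ccne2 with 0.683, Cenpf with 1.25 and Cdc6 with 1.28 CPM per kb.

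The mitosis genes split into those higher in all sorted libraries and those whose level depended on the library. Cdk1 (ENSMUSG00000019942.14), the mitotic kinase, was at 22.3 and 20.8 CPM in bulk and 37.9, 33.5 and 33.7 CPM in sorted cells (log2 0.70 ± 0.18, edgeR adjusted p = 0.0815). It had the smallest p of the 40 genes, and the sorted libraries lay close together, all above bulk. It was called by DESeq2 (adjusted p = 0.0113). Cdc20, which activates the anaphase-promoting complex, was at 44.1 and 43.7 CPM in bulk and 86.1, 60.2 and 69.4 CPM in sorted cells (log2 0.71 ± 0.21, edgeR adjusted p = 0.119; DESeq2 adjusted p = 0.0462). Ube2c, the ubiquitin-conjugating enzyme of that complex, was at 31.9 and 29.2 CPM in bulk and 50.2, 37.8 and 53.4 CPM in sorted cells (log2 0.63 ± 0.21, edgeR adjusted p = 0.185). Both genes of mitotic exit were thus above bulk in each sorted library, by margins that varied more among sorted than among bulk libraries.

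The B cyclins behaved alike. Ccnb2 was at 22.8 and 19.5 CPM in bulk and 36.4, 28.1 and 31.5 CPM in sorted cells (log2 0.60 ± 0.20, edgeR adjusted p = 0.188). Ccnb1 was at 17.5 and 16.9 CPM in bulk and 25.7, 20.2 and 27.2 CPM in sorted cells (log2 0.50 ± 0.21, edgeR adjusted p = 0.299). Birc5, the survivin gene of the chromosomal passenger complex, was at 13.7 and 11.5 CPM in bulk and 22.9, 14.9 and 17.7 CPM in sorted cells (log2 0.56 ± 0.25, edgeR adjusted p = 0.326). The groups did not overlap in any of these 3 genes, nor in Ccna2, Aurka, Aurkb, Bub1b and Tpx2, whose log2 fold changes were 0.26 to 0.39.

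Mki67, the gene of the proliferation marker Ki-67, was below bulk in 2 of the 3 sorted libraries. Mki67 (ENSMUSG00000031004.9) was at 85.8 and 128 CPM in bulk, at 56.1 and 45.6 CPM in GFP 1 and 2, and at 193 CPM in GFP 3, the highest of all libraries. Its log2 fold change was -0.12 ± 0.57 (edgeR adjusted p = 0.941), and the sorted libraries lay on both sides of bulk. The kinetochore genes Cenpf and Cenpe had the same pattern. Cenpf was at 12.9 and 14.97 CPM in bulk and 10.3, 7.65 and 31.6 CPM in GFP 1, 2 and 3 (log2 0.25 ± 0.55). Cenpe, a kinesin of the kinetochore, was at 12.7 and 12.9 CPM in bulk and 9.46, 6.06 and 32.9 CPM in GFP 1, 2 and 3 (log2 0.34 ± 0.62). Without GFP 3, Mki67 was called lower in sorted cells (log2 -1.08, edgeR adjusted p = 0.042, in a fit that called 6.22% of all genes lower), and Gins2 was called higher (log2 1.11, edgeR adjusted p = 0.0368, with 0.538% of all genes called higher). Cenpf and Cenpe, at -0.64 and -0.72 without it, turned in sign but were not called (edgeR adjusted p = 0.149 and 0.147).

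Whatever sets GFP 3 apart cannot be told apart from its difference in Xist and Ddx3y, that is in the sex of the mouse. Nor can it be told apart from the title number 4146, since no other library shares either. Its mitochondrial share of counts was 2.46%, against 1.60% and 1.37% in GFP 1 and 2 and 2.49% and 1.81% in bulk. Its TMM factor was 1.05, against 0.926 and 0.929 in GFP 1 and 2 and 1.05 in both bulk libraries. The part of these differences was not tested. GFP 3 was above all 4 other libraries in 15 of the 20 mitosis genes and in 2 of the 14 replication genes, against 24.7% of all genes tested. In 7 mitosis genes (Mki67, Cenpe, Cenpf, Kif11, Kif23, Bub1 and Nusap1) its log2 CPM exceeded the mean of GFP 1 and 2 by more than 1, genes singled out after their values were seen. Kif23, a kinesin of the midzone, was at 23.0, 27.3, 29.7 and 26.2 CPM in the other libraries and at 68.9 CPM in GFP 3. The spindle kinesin gene Kif11 was at 16.8, 18.7, 18.4 and 12.4 CPM in bulk 1, bulk 2, GFP 1 and GFP 2, and at 38.6 CPM in GFP 3. Top2a, the topoisomerase that untangles sister chromosomes, was at 80.9 and 99.0 CPM in bulk, 91.2 and 75.5 CPM in GFP 1 and 2, and 155 CPM in GFP 3. Between the groups, Nusap1 and Bub1, of the spindle and its checkpoint, differed by 0.80 ± 0.41 and 0.52 ± 0.45, Kif23 and Kif11 by 0.73 ± 0.41 and 0.38 ± 0.43, and the Polo kinase gene Plk1 by -0.00 ± 0.23, none of them called. Without GFP 3 these were 0.41 for Nusap1, -0.06 for Bub1, 0.15 for Kif23, -0.21 for Kif11 and -0.10 for Plk1, and Top2a went from 0.25 to -0.12. By contrast Cdk1, Cdc20, Birc5, Ccnb2 and Aurka were no higher in GFP 3 than in the mean of the other sorted libraries (log2 -0.08, -0.05, -0.06, -0.0216 and -0.00).

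Transcript length moved with this difference. The genes with the longest transcripts of the 40 were Cenpf (11130 bases), Mki67 (10061) and Cenpe (7910), and they had the largest excess in GFP 3, by 1.83, 1.93 and 2.12 on the log2 scale. Over the 20 mitosis genes the rank correlation of length with this excess was 0.65, and 0.44 over the 17 without the 3 longest. Over the 14 replication genes it was 0.15 and over 18107 tested genes with a length 0.24. Length ran the other way with GFP 1 over bulk 1 and with GFP 2 over bulk 2. These rank correlations were -0.58 and -0.69 over the mitosis genes and -0.16 and -0.0066 over the replication genes. Over all 40 genes they were -0.45 and -0.43, and over the tested genes with a length -0.29 and -0.27. These points share their libraries and are a description. The GFP 3 excess of all tested genes of at least 7500 bases had a median of 0.35, with quartiles of 0.06 and 0.72. The 3 longest mitosis genes lay above that range. The set held 9 genes with transcripts of 3381 to 3668 bases, a range picked after the values were seen. Of these, the mitosis genes Bub1, Kif23, Nusap1 and Bub1b exceeded by 1.34, 1.30, 1.01 and 0.12. The replication genes Mcm2, Mcm3, Mcm4, Mcm5 and Uhrf1 stood at -0.37, -0.21, 0.04, -0.36 and -0.0448. Birc5, a mitosis gene just outside the range at 3334 bases, stood at -0.06. The part of length in the difference between the roles was not tested.

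**Figure D2:**
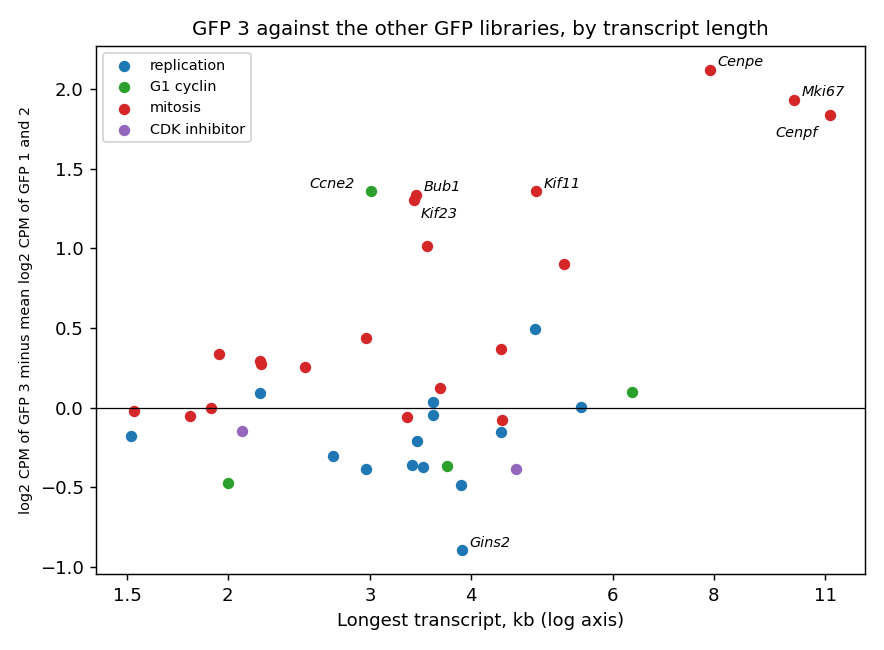
Log2 CPM of GFP 3 minus the mean log2 CPM of GFP 1 and 2 (vertical axis) against the length of the longest transcript in kb (horizontal log axis), 1 point per cell cycle gene, coloured by role. Cenpe, Mki67 and Cenpf stand at the top right with values of 1.83 to 2.12, and most replication genes lie under 0.

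Set side by side, the replication genes had a median log2 fold change of 0.14 and the mitosis genes of 0.39. The 9 Mcm, Pcna and Rrm genes alone had a median of 0.13. Relative to the median of all genes these were 0.09, 0.34 and 0.08. The order did not hold in each library. The mean log2 CPM of the replication genes was 4.95 and 4.97 in bulk and 5.33, 5.21 and 5.07 in GFP 1, 2 and 3, above bulk in each sorted library. That of the mitosis genes was 4.35 and 4.39 in bulk and 4.67, 4.30 and 5.17 in sorted libraries, which put GFP 2 under and GFP 3 far above bulk. Replication minus mitosis, a difference that also carries the lengths of the genes, was therefore 0.60 and 0.58 in bulk, 0.66 and 0.91 in GFP 1 and 2, and -0.10 in GFP 3. Without GFP 3 the median log2 fold changes of the replication and mitosis genes were 0.20 and 0.22, and the difference between the roles rested on that library.

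**Figure D3:**
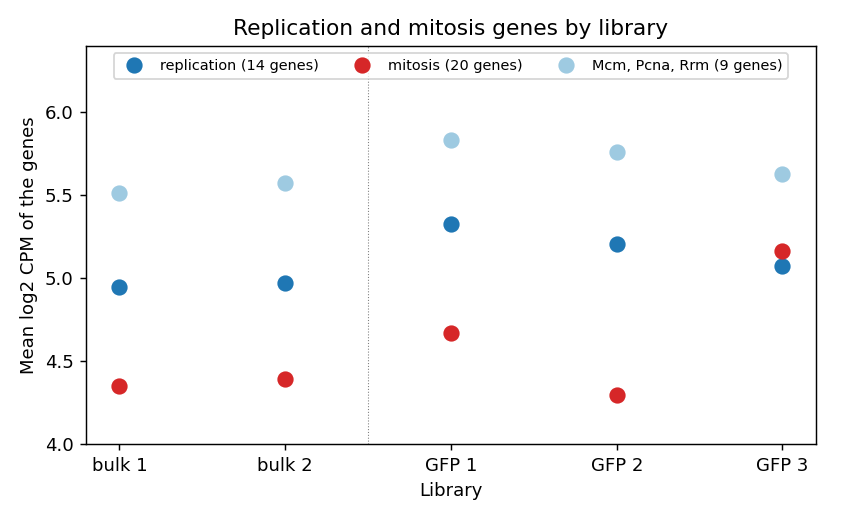
Mean log2 CPM (vertical axis) of the 14 replication genes, the 20 mitosis genes and the 9 Mcm, Pcna and Rrm genes in each of the 5 libraries (horizontal axis). The mitosis mean runs from 4.30 in GFP 2 to 5.17 in GFP 3, while the replication mean stays between 4.95 and 5.33.

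Bulk and GFP libraries 1 share the title number 4143, and libraries 2 the number 4145, so that differences can also be read within a number. In GFP 1 over bulk 1 and in GFP 2 over bulk 2, 24 of the 40 genes were higher in both and 5 lower in both, against 38.5% and 38.8% of all genes tested. The 5 were Mki67, Cenpf, Cenpe, Cdc6 and Rrm2. With the replicate number as a block, to which GFP 3 adds nothing and which leaves 1 residual degree of freedom, 13 of the 40 were called higher (32.5%) and 3 lower (7.5%). That fit called 16.4% of all genes higher and 19.7% lower.

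The genes called higher with the block were Pcna, Gins2, Tyms, Cdt1 and Mcm6 in replication, Cdk1, Cdc20, Ube2c, Ccnb1, Ccnb2 and Birc5 in mitosis, and Ccnd1 and Cdkn1a. On the log2 scale Gins2 rose by 1.12 ± 0.17 (edgeR adjusted p = 3.7e-10), Pcna by 0.78 ± 0.14 (6.23e-07), Cdk1 by 0.73 ± 0.15 (1.71e-05) and Cdc20 by 0.71 ± 0.14 (7.88e-06). Mki67 fell by 1.05 ± 0.14 (edgeR adjusted p = 1.12e-11), Cenpe by 0.75 ± 0.17 and Cenpf by 0.65 ± 0.16. Within numbers 4143 and 4145 the differences were -0.61 and -1.49 for Mki67, -0.42 and -1.08 for Cenpe, and -0.33 and -0.97 for Cenpf. For Gins2 they were 1.05 and 1.19. With 1 residual degree of freedom, the SE and p-values of this fit lean on the spread shared by all genes. They are a poor measure of a gene's own spread between libraries. After removal of each library's trend on length and GC content in addition, 11 were higher and 2 lower, where 15.9% and 17% of all genes were. All 13 were among the 16, with the same sign. Cenpf (-0.13, edgeR adjusted p = 0.539), Ccnb1 (0.31, 0.094) and Cdkn1a (0.33, 0.0796) were no longer called, and the fall of Mki67 shrank to -0.58 (edgeR adjusted p = 3.96e-04).

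**Figure D4:**
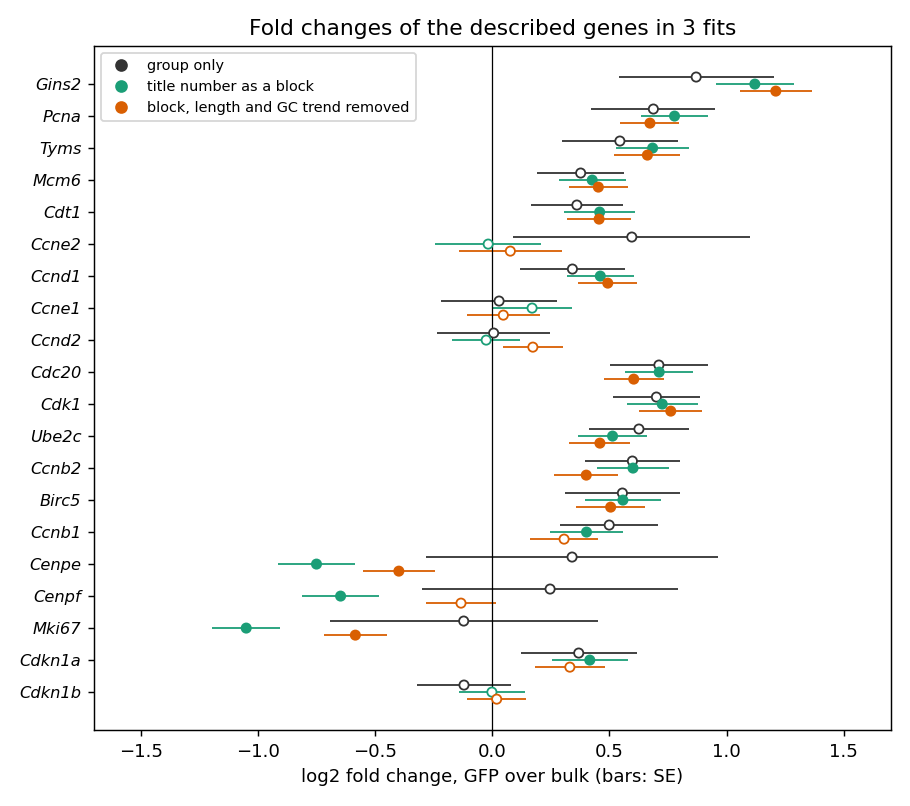
Log2 fold change, GFP over bulk, with its SE (horizontal axis) for the 20 cell cycle genes described in full, in the fit on group alone, with the title number as a block, and with that block after the trend on length and GC was removed. Filled points passed an adjusted p of 0.05 and open points did not. The fit on group alone has no filled point, and Mki67, Cenpf and Cenpe lie far lower with the block.

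Other genes of the same processes were not called either. None was called by edgeR in 43 further replication genes, 66 further mitosis genes and 21 regulators of the G1 to S step. The same held for 5 tested of 6 other CDK inhibitors, 15 genes of the p53 response and 37 tested of 69 histone genes. The histone genes were taken by symbol, so the list does not single out RNA made in S phase. At an unadjusted p under 0.05 there were 2, 15, 3, 2, 1 and 1, beside 15.8% of all genes tested. DESeq2 called 0, 5, 1, 2, 1 and 0, which were 6 higher and 3 lower. It called 1.01% of all genes higher and 7.05% lower. The median log2 fold changes of the further replication and mitosis genes were 0.33 and 0.46, with 33 of 43 and 59 of 66 genes above 0. In the G1 to S regulators, other CDK inhibitors, p53 genes and histone genes the medians were 0.15, 0.16, 0.27 and 0.27. Above 0 there were 13 of 21, 4 of 5, 10 of 15 and 26 of 37. Over all genes tested the median was 0.05, with 54.4% above 0. In 34 of the 66 mitosis genes (51.5%) and 11 of the 43 replication genes (25.6%) GFP 1, 2 and 3 all exceeded bulk 1 and 2. In 1 and 0 of them all 3 lay below. Of all genes tested 14.6% had all 3 above and 18.5% all 3 below. Without GFP 3 the medians of the further replication and mitosis genes were 0.33 and 0.35.

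Of each further list, the genes with the smallest p follow. Dut, which clears dUTP, was at 21.1 and 19.1 CPM in bulk and 37.0, 32.1 and 25.3 CPM in sorted cells (log2 0.64 ± 0.22, edgeR adjusted p = 0.191), and the clamp loader gene Rfc3 differed by 0.65 ± 0.24. Cenpa, the histone variant of the centromere, was at 26.8 and 24.6 CPM in bulk and 50.5, 40.4 and 38.6 CPM in sorted cells (log2 0.75 ± 0.20, edgeR adjusted p = 0.0888), and Prc1, which bundles the spindle midzone, differed by 0.59 ± 0.17. All of these were above bulk in every sorted library.

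E2f2, a transcription factor of the E2F family, was lower in each sorted library, at 45.7 and 61.2 CPM in bulk and 29.7, 28.9 and 31.7 CPM in GFP 1, 2 and 3 (log2 -0.83 ± 0.19, edgeR adjusted p = 0.0514). Mycn, a growth-promoting factor of the Myc family, was at 9.23 and 10.3 CPM in bulk and 6.59, 4.51 and 6.03 CPM in sorted cells (log2 -0.77 ± 0.25, edgeR adjusted p = 0.162). Cdkn2b, the p15 inhibitor of cyclin D kinases, was at 27.0 and 16.9 CPM in bulk and 8.73, 13.1 and 5.20 CPM in sorted cells (log2 -1.28 ± 0.38, edgeR adjusted p = 0.126). These 3 were lower in all sorted libraries, whereas Cdkn3, a phosphatase of CDKs, was higher, at 3.29 and 2.15 CPM in bulk and 8.64, 4.80 and 4.70 CPM in sorted cells. In the p53 list, which bears on Cdkn1a, 10 of 15 genes were above 0, against 54.4% of all genes tested. Their median log2 fold change was 0.27, against 0.05 over all genes. The 2 with the smallest p differed in sign, Zmat3 by -0.82 ± 0.21 (edgeR adjusted p = 0.0671) and Plk2 by 0.57 ± 0.26. The histone genes summed to 115 and 85.5 CPM in bulk and 204, 182 and 69.4 CPM in GFP 1, 2 and 3, again with GFP 3 apart. Most of the sum came from Hist1h1c, a linker histone gene, at 54.4 and 43.6 CPM in bulk and 129.7, 112.6 and 25 CPM in GFP 1, 2 and 3, and from Hist1h2bc, both named after their values were seen. The other histone genes are scarce, and near-identical copies make single values uncertain. With the smallest p, Hist1h4a and Hist1h3a differed by 1.12 ± 0.42 and 0.91 ± 0.41.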

How the data were processed

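RNA of 5 libraries was sequenced, 3 from GFP-sorted cells and 2 from the unsorted population. The deposited values are whole-number counts for each Ensembl gene, without normalization. The aligner STAR and build GRCm39 are named per the submitters' processing notes. No source used here names the counting tool, annotation, strandedness or filters, so overlapping and antisense genes could not be separated. Symbols came from a table of gene names, which matched 52073 of 56691 gene IDs, and transcript lengths and GC content from the longest transcript in GENCODE M21 (GRCm38).

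The counts were fitted with edgeR 4.0.16 in R 4.3.3 (TMM, filterByExpr with a minimum count of 10, group term, quasi-likelihood test, two-sided, 3 residual degrees of freedom), adjusted over all 18583 genes tested. The script was tested on simulated data. Alternatives were DESeq2 1.42.0 (size factors, Wald test), library size alone, no filter on low counts, a minimum of 1 CPM in 2 libraries, a loess trend (span 0.3) on length and GC as an offset (18107 genes with both), the title number as a block, and leaving out each library. Each title number was taken to name an animal, which the labels do not state. Across genes the bulk 1 minus bulk 2 difference correlated with that of GFP 1 minus GFP 2 (r = 0.44). Replicates of a group differed well beyond sampling noise (chi-square divided by its degrees of freedom, 91.5 to 280).

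The genes, lists and roles were chosen with earlier results of these data known. All 40 genes are accounted for. Those called with or without the block, and those with the smallest p of each role (5, 5, 4 and 2), are given in full, as are the 2 genes of smallest p of each further list. Lists are described by counts and medians, with no set test.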

Additional observations from a re-analysis of the deposited data

How the results depend on the processing

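With the group term alone, edgeR called 0 of the 40 cell cycle genes in either direction, and the same under the other scalings and the stricter filter. Calls of higher level numbered 2 with the DESeq2 Wald test (Cdk1, Cdc20), 1 with no filter on low counts (Gins2), 1 with the length and GC trend removed (Cdk1), 13 with the replicate block and 11 with the block and the trend removed. Calls of lower level numbered 3 with the replicate block and 2 with the block and trend removed. Leaving out each library gave 0 to 1 higher and 0 to 1 lower, the calls being Gins2 and Mki67 without GFP 3. In the 6 further lists (43, 66, 21, 5, 15 and 37 genes tested with the group term alone), 0 genes were called either way with that term. Higher calls numbered 6 with DESeq2, 5 with no filter, 60 with the block and 57 with block and trend. Over all genes these fits called, in that order, 1.01%, 0.786%, 16.4% and 15.9% higher. Lower calls there numbered 1 under library size scaling, 3 with DESeq2, 5 with no filter, 18 with the block, 1 with the trend removed and 12 with both. Library size scaling called 1059 of all 18583 genes lower. The other fits called, in that order, 7.05%, 5.06%, 19.7%, 5.37% and 17% of all genes lower. Leaving out a library gave 0 to 2 higher and 0 to 3 lower in these lists, which were added to the alternatives after the data were seen.

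The median log2 fold change of the replication genes minus that of the mitosis genes was -0.25. This difference ran from -0.28 (library size alone) to 0.13 (block and trend removed), so its sign was not stable. With a library left out it ran from -0.50 to -0.02. The per-library difference of mean log2 CPM had an SD of 0.014 in bulk and 0.52 in sorted libraries (pooled 0.43), the latter with GFP 3 apart. That SD does not measure the spread of the difference of medians. Among the 20 genes described in full, the signs of those below changed with the setting. None of the 40 was called with the group term alone, but Mki67, Cenpe and Cenpf were called lower with the block. Mki67 was at 0.22 with the trend removed and ran from -1.08 (without GFP 3) to 0.22 (without GFP 2) with a library left out. Cenpe was at -0.75 with the block and -0.40 with block and trend, and Cenpf at -0.65 and -0.13. With a library left out they ran from -0.72 to 0.73 and from -0.64 to 0.59, below 0 without GFP 3. Ccnd2 was at -0.11 with library size, -6.16e-04 with no filter, -0.0242 with the 1 CPM minimum, -0.0260 with the block, and -0.20 to 0.24 with a library left out. Ccne1 was at -0.10 with library size, -0.0048 with the 1 CPM minimum, -0.0356 with the trend removed, and -0.11 to 0.17 with a library left out. Ccne2 was at -0.0175 with the block and Cdkn1b at 0.0188 with block and trend. The cause was not tested. With 2 bulk libraries, fits without one assume that the lone library varies like the sorted ones.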
